A study of Mus musculus with 4 samples.

Results

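The renin-angiotensin system components examined here were 9 genes, chosen by symbol from the 32647 gene symbols measured: Ren1, Agt, Ace, Agtr1a, Agtr1b, Agtr2, Mas1, Enpep and Atp6ap2. They were measured by RNA-seq in renin cells sorted from the kidney cortex of adult C57BL/6 mice, about 2 months old, that carried the Ren1c-YFP transgene. In this transgene the Ren1c renin promoter drives a yellow fluorescent protein, so the cells were chosen by the activity of the promoter of Ren1 itself, and a high Ren1 level follows from the sort. For 7 days the mice received captopril, which blocks the angiotensin converting enzyme, in drinking water (0.5 g/L) and ate a diet of 0.1% sodium, which recruits additional renin cells along the renal arterioles. There were 2 biological samples with 2 technical replicates each, 4 libraries of 1 condition, so no comparison with untreated cells or other tissue could be made. The sources do not say whether a biological sample was a single mouse, or at which step the technical replicates were divided.

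The renin-angiotensin system is a chain of cleavages. Renin cuts angiotensinogen (Agt) to angiotensin I, and angiotensin converting enzyme (Ace) trims this to angiotensin II, which raises blood pressure through the type 1 receptors Agtr1a and Agtr1b. Angiotensin II acting on type 1 receptors of renin cells is known to restrain renin release, and captopril removes that restraint. Agtr2 is the type 2 receptor and Mas1 the receptor of angiotensin-(1-7), both usually described as opposing the type 1 receptor, while aminopeptidase A (Enpep) shortens angiotensin II and Atp6ap2 is the (pro)renin receptor and an accessory subunit of the vacuolar proton pump.

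The proximal promoter of Ren1 is shown because the sort rested on Ren1 promoter activity. The 250 bases before the RefSeq start of Ren1 (GRCm38, chr1:133350424-133350673, plus strand) were searched on both strands for TATAAA, for TGACG, the core of a cAMP response element, and for TGATNNAT, a pattern bound by PBX and HOX proteins. Capitals mark the matches, which do not overlap. GENCODE M21 starts the gene at 133350510, inside this window and before all marked matches, so the 2 annotations differ on the start.
Ren1 promoter: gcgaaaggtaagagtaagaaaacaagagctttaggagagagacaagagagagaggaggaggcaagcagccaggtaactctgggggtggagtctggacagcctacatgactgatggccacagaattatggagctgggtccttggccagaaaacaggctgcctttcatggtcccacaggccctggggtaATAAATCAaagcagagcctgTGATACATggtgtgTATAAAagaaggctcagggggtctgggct
TATAAA lay 29 to 24 bases before the start, and 12.4% of 32841 promoter windows of this length held it. TGATNNAT matched at 2 places, on the minus strand and on the plus strand, and was held by 7.69% of the windows. TGACG did not occur in this window, against 17.8% of all windows. Of the 9 members, 8 had an entry in the RefSeq table, and Agtr1a had none. Of the 8, on either strand, 5 held TATAAA, 3 TGATNNAT and 1, Atp6ap2, TGACG. The TATAAA matches of Enpep and Ace lay on the strand opposite to the gene, and a second entry of Ace held none of the patterns. A match describes letters and is not a binding site.

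Of the 9 members, 3 reached 1 TPM (transcript abundance scaled to gene length and library size) in every library: Ren1, Atp6ap2 and Agtr1a. Of all genes measured 9.74% did so, and 16.5% of the 19229 genes above 0 TPM in any library. Enpep reached 1 TPM in 3 libraries. Ace, Agt and Mas1 each reached it in 1 library, and Agtr1b and Agtr2 in none, so that 7 of 9 members reached it in at least 1 library, against 37.7% of all genes. By the mean of the 2 biological samples the order was Ren1, Atp6ap2, Agtr1a, Enpep, Ace, Agt, Mas1, Agtr1b and Agtr2. Between neighbours in this order the libraries of Ren1 lay wholly above those of Atp6ap2 and those of Agtr1b, at a few counts each, above the zeros of Agtr2, while the ranges of all other neighbours overlapped. The median of the members' means was 1.92 TPM, against 0.0310 TPM over all genes and 1.33 TPM over the genes above 0 TPM in any library. This median is the mean of Ace, which came from 1 library. By library the median of the members was 1.74 and 0.157 TPM in sample 1 and 0.00956 and 1.83 TPM in sample 2. Over the genes above 0 TPM in any library it was 0.640 and 0.218 TPM in sample 1 and 0.169 and 0.0996 TPM in sample 2. Symbols are those of the deposited table, and Ensembl identifiers and coordinates are from GENCODE M21 on GRCm38.

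**Figure D1:**
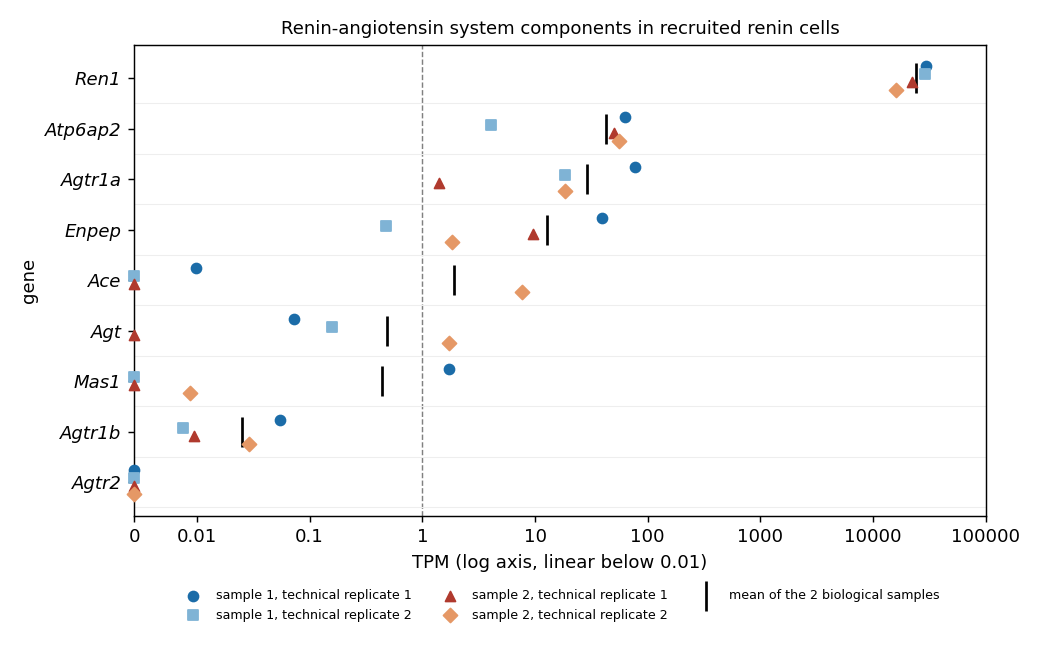
Level of each member in TPM (horizontal log axis, linear below 0.01 TPM) in the 4 libraries, with a vertical bar at the mean of the 2 biological samples and a dashed line at 1 TPM. Ren1 lay between 15933 and 29637 TPM, Atp6ap2 and Agtr1a stayed above the line in every library, and Agtr2 was listed at 0 throughout.

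Ren1, which encodes the protease that starts the cascade (ENSMUSG00000070645, chromosome 1 of GRCm38, 133350510 to 133360325), had 29637 and 28674 TPM in the paired libraries of sample 1 and 21904 and 15933 TPM in those of sample 2. Both libraries of sample 1 lay above both of sample 2. The mean was 24037 ± 7239 TPM (SD, n = 2 biological samples), with sample 1 at 1.54 times sample 2, and 63.0% of the 127 genes with a mean of 1000 TPM or more also had libraries that did not overlap between the samples. Libraries that did not overlap together with a difference of 4-fold or more were seen for 7.87% of those genes, and not for Ren1. Mitochondrial genes took 10.4% and 9.26% of TPM in sample 1 and 25.9% and 14.9% in sample 2, and with TPM rescaled without them Ren1 was at 33070 and 31599 TPM in sample 1 and at 29548 and 18723 TPM in sample 2, still without overlap. Technical replicates of Ren1 were 1.03-fold and 1.37-fold apart in samples 1 and 2. Ren1 took 2.96%, 2.87%, 2.19% and 1.59% of all TPM, and 99.4% to 99.9% of the summed TPM of the 9 members. C57BL/6 mice carry a single renin gene, the Ren1c allele, and Ren2 was not analysed here.

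The markers set for renin cells were present beside Ren1. Of 8 such genes, Ren1 included, 7 reached 1 TPM in each library, and the exception was Gja4, a vascular connexin gene, at 67.4, 2.55, 132 and 0.0950 TPM. Akr1b7, an aldo-keto reductase of renin cells, was also higher in both libraries of sample 1, at 1806 and 1800 TPM, than in those of sample 2, at 1100 and 1189 TPM. The ratio of Ren1 to Akr1b7 was 16.4 and 15.9 in sample 1 and 19.9 and 13.4 in sample 2, so the ratios of the samples overlapped. Crip1, a LIM protein gene and the next highest marker, was at 17235 and 15591 TPM in sample 1 and at 3913 and 6634 TPM in sample 2. Against the sum of the other 7 markers, most of which was Crip1 in every library, Ren1 stood at ratios of 1.40 and 1.54 in sample 1 and of 3.44 and 1.80 in sample 2. These ratios did not overlap, and were higher in the sample in which Ren1 was lower. Fewer cells of a type and less RNA per cell cannot be told apart in pooled cells, for Ren1 or any other gene.

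The substrate of renin was nearly absent. Agt (ENSMUSG00000031980, chromosome 8, 124556534 to 124569706), a secreted precursor made mainly by the liver and in the kidney by the proximal tubule, was at 0.0723 and 0.157 TPM in sample 1 and at 0 and 1.71 TPM in sample 2. Its estimated counts were 2.13, 7.99, 0 and 117, so nearly all of its signal came from technical replicate 2 of sample 2. The mean was 0.485 ± 0.525 TPM (SD, n = 2), and 0.0572 TPM without that library. In the only library with over 10 estimated counts of Agt, Ren1 stood at 9301 times its level.

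The converting enzyme was likewise found in 1 library. Ace (ENSMUSG00000020681, chromosome 11, 105967945 to 105989964), the target of captopril and best known from endothelium and the proximal tubule brush border, was at 0.00984 and 0 TPM in sample 1 and at 0 and 7.66 TPM in sample 2. The last value rested on 1846 estimated counts, against 1.02, 0 and 0 in the other libraries. The mean of 1.92 ± 2.71 TPM (SD, n = 2) thus describes a single library, without which it was 0.00246 TPM. In GENCODE M21 an antisense gene, Gm11651, shares 295 exonic bases with Ace. Strand was not stated for these libraries, and its reads could not be told from those of Ace there.

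The sum of the proximal tubule markers was highest in the library that held Agt and Ace. The summed level of 12 proximal tubule markers was 13372 TPM in technical replicate 2 of sample 2, against 787 to 1766 TPM in the other libraries. Kap, an androgen-regulated tubule gene, was at 55.5 and 19.8 TPM in sample 1 and at 1236 and 11140 TPM in sample 2. Both libraries of sample 2 thus lay above both of sample 1 for Kap. Without Kap the sum was 2232 TPM in technical replicate 2 of sample 2, against 530 to 878 TPM in the other libraries. The next highest genes of the list, Miox and Fbp1, enzymes of inositol and glucose metabolism, were also highest there, at 1128 TPM against 364 to 484 TPM and at 335 TPM against 96.4 to 222 TPM. Of the 12 genes, 7 reached 1 TPM in each library, and Aqp1, a water channel of the proximal tubule, stayed between 0 and 0.102 TPM. Slc22a6 and Slc22a8 were highest in technical replicate 1 of sample 1, at 29.1 and 5.57 TPM, against 11.2 and 2.27 TPM in the library with Agt and Ace. Cubn was lowest in the library with Agt and Ace, at 0.425 TPM against 0.554 to 2.11 TPM. The sum of 9 endothelial markers was 141 TPM in that library against 38.2 to 51.6 TPM, but a single gene, Egfl7, gave 126 TPM of it. Without Egfl7 the sum was 15.4 TPM there, the lowest of the 4 libraries, against 24.0, 50.6 and 51.5 TPM. Of these 9, only Pecam1, at 5.82 TPM in that library, and Emcn, at 5.02 TPM, reached 1 TPM in each library, and Cdh5, the cadherin of endothelial junctions, was at 0, 0.0316, 0 and 0 TPM. Plvap, of fenestrated endothelium, was highest there at 4.08 TPM, whereas the vascular receptor genes Flt1, Kdr and Tek were lowest there, at 0.0143, 0.00259 and 0.00620 TPM. Their part in the levels of Agt and Ace was not tested.

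**Figure D2:**
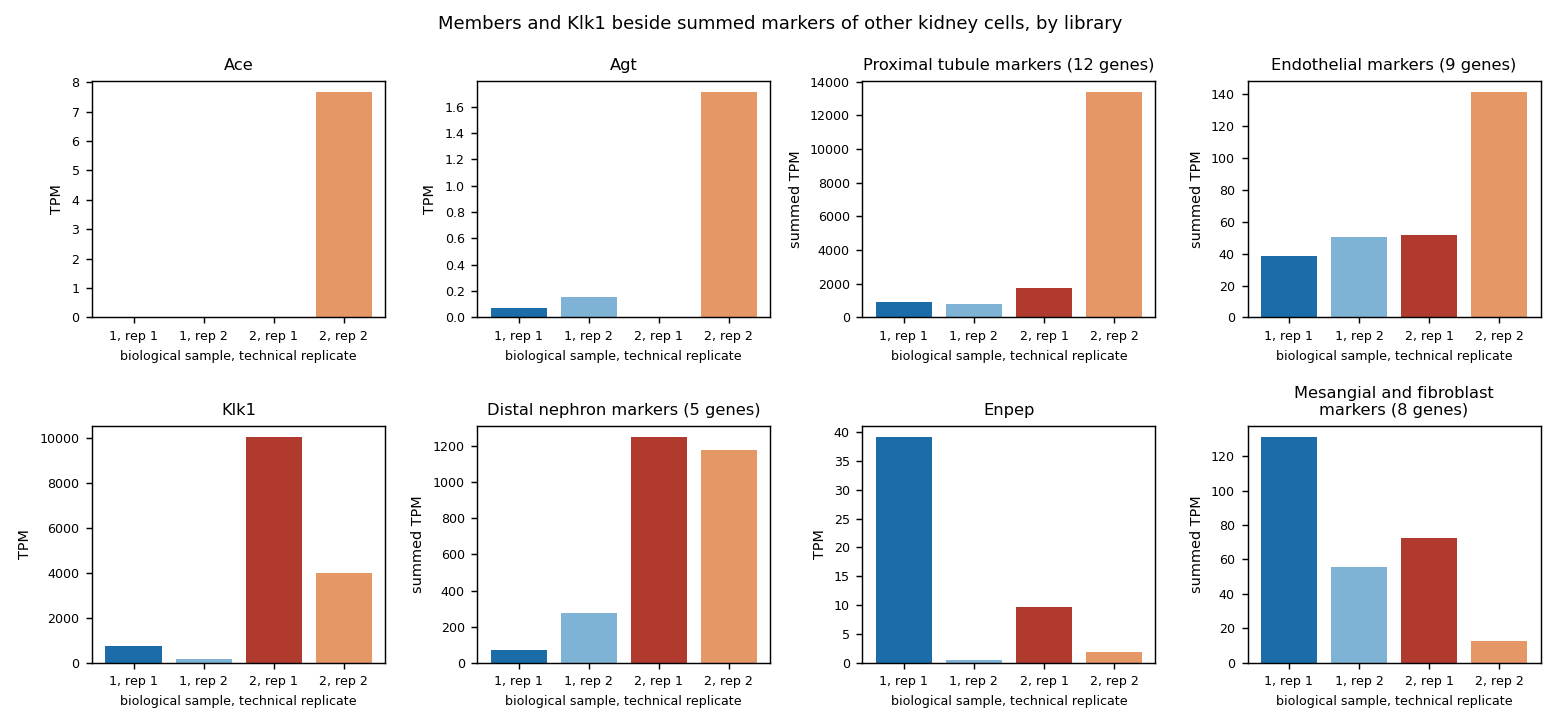
Bars give TPM of Ace, Agt, Klk1 and Enpep, and the summed TPM of 4 marker lists, in each library (sample and technical replicate on the horizontal axis, linear vertical axes that start at 0). Ace at 7.66 TPM and Agt at 1.71 TPM share technical replicate 2 of sample 2 with the highest proximal tubule sum, and with the highest endothelial sum through Egfl7 alone, and Klk1 is higher in both libraries of sample 2, as the distal nephron sum is.

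Among the angiotensin receptors, only Agtr1a was found in every library. Agtr1a (ENSMUSG00000049115, chromosome 13, 30336441 to 30382867) was at 76.7 and 18.6 TPM in sample 1 and at 1.40 and 18.6 TPM in sample 2. The lowest of these still rested on 150 estimated counts, and the other libraries held 2037 to 4852. The mean was 28.8 ± 26.6 TPM (SD, n = 2), higher than that of 89.2% of genes above 0 TPM. Without technical replicate 1 of sample 1 it was 14.3 TPM, and the mean deposited by the authors, which leaves that library out, was 12.9 TPM. Agtr1a was the 1 member whose samples were called different, by the rule that the libraries of the 2 samples do not overlap and that the sample means differ at least 4-fold on TPM + 1. Sample 1 was 4.43-fold higher on this scale. By the same rule 4.06% of all genes were lower in sample 2, 2.43% were higher, and 6.49% were called either way. The call rests on 18.64 TPM in sample 1 against 18.59 TPM in sample 2, and technical replicates of Agtr1a were 4.12-fold and 13.3-fold apart. After rescaling TPM without mitochondrial genes these libraries changed order, to 20.5 and 21.8 TPM, and the call was lost. The 4.77-fold difference between the sample means in TPM was smaller than the spread between the technical replicates of sample 2.

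The related receptor gene Agtr1b (ENSMUSG00000054988, chromosome 3, 20314473 to 20367177) was at 0.0545 and 0.00784 TPM in sample 1 and at 0.00956 and 0.0288 TPM in sample 2. Its 9.53 estimated counts over all libraries compare with 9762 for Agtr1a. In these libraries 3 counts of Agtr1b correspond to 0.0205 to 0.0475 TPM, so its level was at or near that of a few reads. In the libraries with at least 3 counts of Agtr1b, technical replicate 1 of sample 1 and technical replicate 2 of sample 2, Agtr1a was at 1407 and 645 times its level. Every library of Agtr1a lay above every library of Agtr1b, so this difference was larger than the spread between libraries.

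Because the coding sequences of both type 1 receptors are alike, the letters that tell them apart are shown. Over 1077 coding bases in each they differed at 99, an identity of 90.8%. Of the 2136 distinct 31-base words in Agtr1b transcripts of GENCODE M21, 4.35% also occur in Agtr1a, as do 3.26% of Agtr1a words in Agtr1b, so most stretches of either transcript are its own. The 60 coding bases with the most differences (bases 964 to 1023 of the coding sequence, GRCm38 chr13:30381917-30381976 on the plus strand for Agtr1a and chr3:20315418-20315477 on the minus strand for Agtr1b) are given, with the 13 differing bases in capitals.
Agtr1a: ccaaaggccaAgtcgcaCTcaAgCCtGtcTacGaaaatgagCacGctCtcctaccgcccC
Agtr1b: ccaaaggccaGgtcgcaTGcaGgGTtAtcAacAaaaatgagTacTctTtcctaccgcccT

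The type 2 receptor was not detected. Agtr2 (ENSMUSG00000068122, X chromosome, 21484544 to 21489164) was listed at 0 TPM and 0 estimated counts in all 4 libraries, as were 41.1% of all genes of the table. A count of 0 allows up to 3 counts, which for Agtr2 correspond to 0.0254 to 0.0589 TPM per library. This limit covers counting error only, since cDNA amplified from a small pool of cells can miss scarce transcripts altogether.

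The receptor of angiotensin-(1-7) was found in 1 library. Mas1 (ENSMUSG00000068037, chromosome 17, 12841079 to 12868143) was at 1.74 and 0 TPM in sample 1 and at 0 and 0.00898 TPM in sample 2. Its estimated counts were 78.7, 0, 0 and 0.938, so the mean of 0.438 ± 0.614 TPM (SD, n = 2) came almost wholly from technical replicate 1 of sample 1. The mean deposited by the authors, which leaves that library out, was 0.00299 TPM.

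Aminopeptidase A varied more than Ren1 did. Enpep (ENSMUSG00000028024, chromosome 3, 129269175 to 129332720), an enzyme that removes the first residue of angiotensin II, was at 39.1 and 0.472 TPM in sample 1 and at 9.63 and 1.83 TPM in sample 2. Its technical replicates were 83.0-fold and 5.27-fold apart, more than the 3.46-fold between the sample means, and the samples overlapped. The mean was 12.8 ± 9.95 TPM (SD, n = 2), and the mean deposited by the authors, without the highest library, was 3.98 TPM. All libraries held over 100 estimated counts of Enpep. In the library with the highest Enpep, 8 mesangial and fibroblast markers summed to 131 TPM, against 55.7, 72.3 and 12.5 TPM in the others. That library also had the highest Agtr1a. Of these 8 markers, Gata3 and Col1a2 reached 1 TPM in each library, and Lum was listed at 0. Itga8, a mesangial integrin, was at 31.4, 6.23, 1.05 and 0.0181 TPM, and Pdgfrb, a receptor of mural cells, at 17.1, 0.213, 2.51 and 0.0742 TPM. Col1a2, at 10.0, 34.1, 28.8 and 1.53 TPM, and Col1a1, at 2.42, 0.825, 5.17 and 3.94 TPM, were highest in other libraries. The part of mesangial cells and fibroblasts in the Enpep level was not tested. Markers of podocytes, which also make aminopeptidase A, summed to 13.4 to 54.9 TPM over 5 genes, led by Synpo, Podxl and Wt1, of which Synpo alone reached 1 TPM in each library. The sum of 7 leukocyte markers, led by Cd79a, Ptprc and Itgam, was 0.576 to 27.5 TPM, and none of them did so. The 12 proximal tubule markers summed to 934 and 787 TPM in sample 1 and to 1766 and 13372 TPM in sample 2.

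The (pro)renin receptor was found in every library. Atp6ap2 (ENSMUSG00000031007, X chromosome, 12587801 to 12617049) was at 62.3 and 4.03 TPM in sample 1 and at 50.7 and 55.2 TPM in sample 2. A single library, technical replicate 2 of sample 1, lay well below the others, which were within 62.3 and 50.7 TPM. The mean was 43.0 ± 14.0 TPM (SD, n = 2), and the samples overlapped. Technical replicates were 15.5-fold apart in sample 1 and 1.09-fold apart in sample 2. The effective length of Atp6ap2 in the table reached 3228 bases, longer than the longest GENCODE M21 transcript of 2324 bases. Enpep, at 4301 against 4181 bases, and Agtr1b, at 2374 against 2147 bases, also exceeded theirs, and the reason was not tested.

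The number of libraries in which a member was found can be read against genes of like level. Of the 3546 genes with a mean of 10 to 100 TPM, the range that holds Atp6ap2, Agtr1a and Enpep, 49.7% reached 1 TPM in every library and 27.7% in 3. Of the 5872 genes with a mean of 1 to 10 TPM, as Ace had, 10.7% did so in every library and 30.9% in exactly 1. Of the 4222 genes at 0.1 to 1 TPM, as Agt and Mas1 were, 44.2% reached 1 TPM in exactly 1 library and 51.1% in none. Genes with a mean under 1 TPM cannot reach it in every library. Ace and Mas1 had 90% or more of their summed TPM in a single library, as did 26.5% of genes at 1 to 10 TPM and 30.6% of genes at 0.1 to 1 TPM. None of Atp6ap2, Agtr1a and Enpep did, against 14.9% of genes at 10 to 100 TPM. Where a gene had at least 10 TPM in either library of a pair, 21.0% and 30.3% of cases lay under 0.5 TPM in the other technical replicate of samples 1 and 2, against 22.9% to 29.7% between samples. Of 16 genes that most cells use, 11 reached 1 TPM in every library, and the transferrin receptor gene Tfrc was listed at 0 in a library of each sample. The highest of the 16 were Ppia, Eef1a1 and Actb, with means of 3403, 1041 and 658 TPM. Total estimated counts ran from 19871382 to 47471036 per library.

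**Figure D3:**
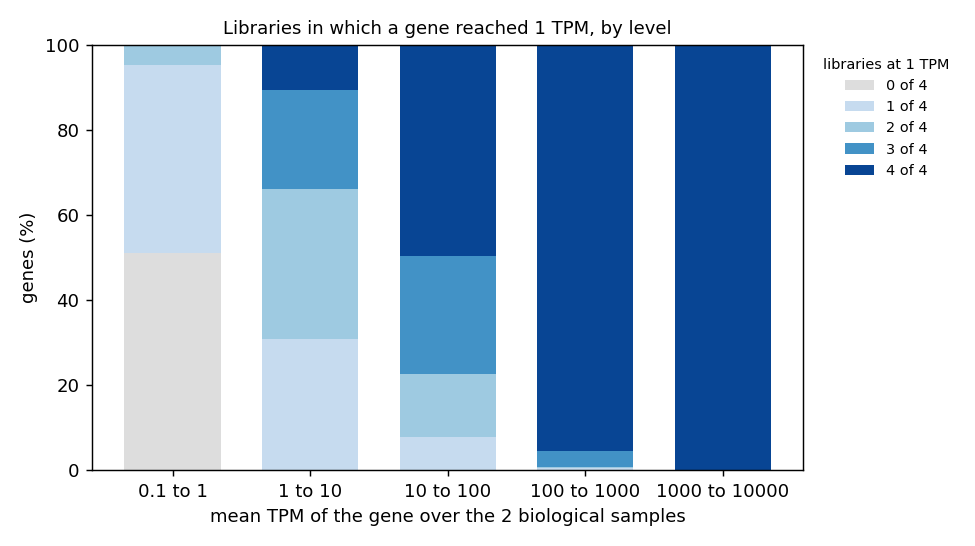
Share of genes (vertical axis, %) that reached 1 TPM in 0, 1, 2, 3 or 4 libraries, for genes grouped by their mean TPM (horizontal axis). At 10 to 100 TPM, the range of Atp6ap2, Agtr1a and Enpep, 49.7% of genes were found in every library, while at 0.1 to 1 TPM, the range of Agt and Mas1, 44.2% were found in exactly 1 library.

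Genes with levels most like those of the members were sought over all 4 libraries, as the smallest root mean square difference of log2(TPM + 1). For Atp6ap2 these were Fhl1, Ttc3 and Csnk1a1, at 0.43 to 0.45, all of which were also lowest in technical replicate 2 of sample 1. For Agtr1a they were Rap1a at 0.46 and Pigf and Csnk2b at 0.51, and each was lowest in technical replicate 1 of sample 2. For Ren1 no gene was close: the nearest were mt-Co2 at 0.93, mt-Co3 at 1.11 and Gm10925 at 1.16. With 4 libraries and 32647 genes such matches are a description only.

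Other genes of the pathway were taken from a list of 24, of which 23 were measured. Of these, 5 reached 1 TPM in every library, against 9.74% of all genes, and they were Klk1, Tmem27, Ctsd, Ctsa and Mep1a. A further 2, Rnpep and Prcp, were so in 3 libraries. Tmem27, which encodes collectrin, a protein of the proximal tubule, was at 281, 133, 152 and 313 TPM. Ctsd, a lysosomal aspartic protease of the same fold as renin, was at 90.7, 13.0, 34.8 and 180 TPM. The serine carboxypeptidases Ctsa and Prcp, which can shorten angiotensins, had means of 45.8 ± 9.37 and 10.9 ± 11.4 TPM (SD, n = 2). The median of the 23 means was 0.578 TPM.

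**Figure D4:**
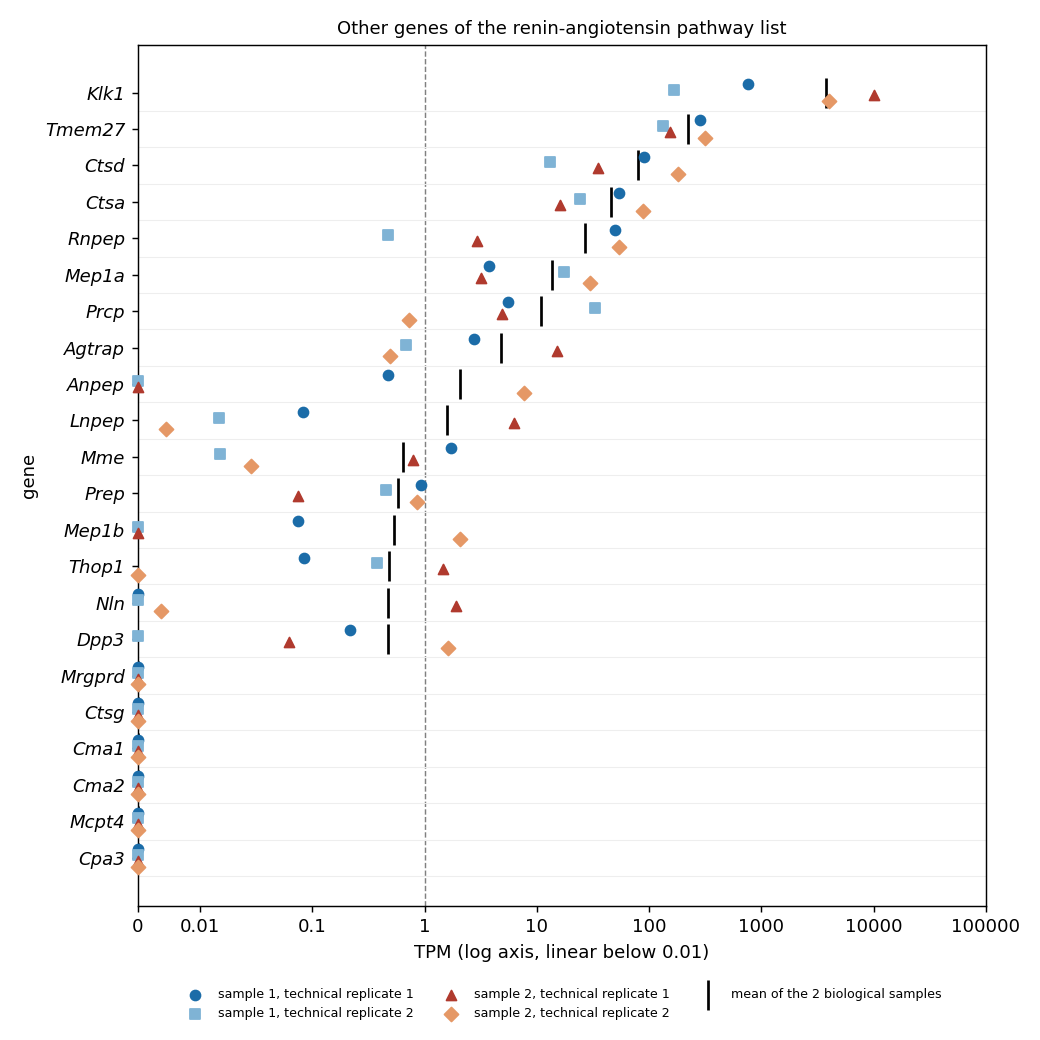
TPM of other pathway genes in each library (horizontal log axis, linear below 0.01 TPM), with a vertical bar at the mean of the 2 biological samples and a dashed line at 1 TPM. Klk1, Tmem27, Ctsd, Ctsa and Mep1a lie above 1 TPM in all 4 libraries, and 6 genes are listed at 0 in every library.

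Klk1, tissue kallikrein, a protease made by the connecting tubule that releases kinins, was at 763 and 166 TPM in sample 1 and at 10028 and 3998 TPM in sample 2. Both libraries of sample 2 lay above both of sample 1, and among the 23 genes only Klk1 was called higher in sample 2, with 1, Prcp, called lower. By the same rule 2.43% of all genes were called higher and 4.06% lower. The mean of Klk1 was 3739 ± 4631 TPM (SD, n = 2). The 5 markers of the distal nephron summed to 70.2 and 273 TPM in sample 1 and to 1249 and 1177 TPM in sample 2, and all 5 reached 1 TPM in each library. Umod, Slc12a1 and Aqp2 were the highest of them, with means of 411, 98.7 and 81.5 TPM. Umod, Slc12a1 and Calb1 were called higher in sample 2, while Aqp2, at 3.29, 52.9, 2.18 and 268 TPM, was not. Aqp2 was lowest in the library with the highest Klk1. Calb1, which marks the connecting tubule, was at 2.86, 1.86, 133 and 116 TPM. The part of such cells in the Klk1 level was not tested. Klk1 has close relatives: of 13 Klk1b genes measured, 7 were listed at 0 throughout and 2 reached 1 TPM in any library, Klk1b9 at 11.3 and Klk1b27 at 7.57 TPM in technical replicate 1 of sample 2, and reads may be divided among such copies.

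Of the peptidases of the pathway list that act on angiotensins, Ctsa and Mep1a were found in every library. Prcp was found in 3, as was Rnpep, at 49.7, 0.476, 2.93 and 54.0 TPM, while those named next were found in fewer. Neprilysin (Mme) was at 1.72, 0.0149, 0.780 and 0.0283 TPM, and aminopeptidase N (Anpep) at 0.471, 0, 0 and 7.72 TPM, highest in the library that held Ace. The effective length of Anpep was 391 to 400 bases in the table, against 3797 bases for its longest GENCODE M21 transcript, so its level describes a short transcript model. Lnpep, the aminopeptidase that binds angiotensin IV, was at 6.23 TPM in technical replicate 1 of sample 2 and at 0.00456 to 0.0820 TPM elsewhere. Agtrap, which binds the type 1 receptor and promotes its internalisation, was at 2.75, 0.687, 15.2 and 0.489 TPM. The mast cell proteases Cma1, Cma2, Mcpt4 and Cpa3, the neutrophil protease Ctsg and the receptor gene Mrgprd were listed at 0 in every library. Of 6 mast cell markers, 4 were also listed at 0 in every library and none reached 1 TPM in more than 1, the highest being Kit at a mean of 1.40 TPM and Hdc at 0.580 TPM.

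Of 7 genes of prorenin sorting and cleavage, 1 reached 1 TPM in every library, against 9.74% of all genes. This was Ctsb, a lysosomal protease that can activate prorenin in the test tube, at 209, 248, 198 and 131 TPM. Furin was at 3.32, 0.469, 6.36 and 5.16 TPM, and M6pr, a mannose 6-phosphate receptor, at 0.0420, 1.11, 0.537 and 10.1 TPM. Pcsk1, a convertase of endocrine granules that can cleave prorenin, was listed at 0 in every library.

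Of 16 genes through which the type 1 receptor signals, 7 reached 1 TPM in every library, against 9.74% of all genes. The median of the 16 means was 7.35 TPM, against 0.0310 TPM over all genes, so these shares are not matched for level. The inhibitory G protein gene Gnai2 was highest, at 65.9, 62.0, 14.7 and 15.0 TPM, followed by the calcium release channel gene Itpr1 at 26.4, 20.0, 12.4 and 29.1 TPM and the small GTPase gene Rhoa at 10.9, 10.3, 51.9 and 11.0 TPM. Gnaq, whose product couples the type 1 receptor to phospholipase C, was at 18.9, 16.3, 3.19 and 2.61 TPM. By the rule used for Agtr1a, 3 genes of this list were lower in sample 2, namely Gnai2, Gnaq and the phospholipase gene Plcb4, and 2 were higher, Plcb1 and the exchange factor gene Arhgef1. Of all genes 4.06% were lower and 2.43% higher by this rule. Plcb2 was listed at 0 in every library.

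Downstream of angiotensin II, none of 6 mineralocorticoid genes reached 1 TPM in every library, against 9.74% of all genes. The mineralocorticoid receptor gene Nr3c2 was at 41.5, 36.8, 21.9 and 0.00596 TPM. Hsd11b2, which shields that receptor from glucocorticoids, was at 0.739, 47.6, 7.08 and 42.6 TPM, Sgk1, a kinase it induces, at 9.97, 10.5, 4.92 and 0.0751 TPM, and aldosterone synthase (Cyp11b2) was listed at 0. Of 6 kinin genes, Kng2, a kininogen, was at 64.9, 39.8, 137 and 131 TPM and was the 1 found in every library. The kinin receptor gene Bdkrb1 was at 56.4 TPM in technical replicate 1 of sample 1 and at 0.0293 to 0.112 TPM elsewhere, and the carboxypeptidase gene Cpn1 at 61.0 TPM in technical replicate 2 of sample 2 and at 0.124 to 0.291 TPM elsewhere.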

How the data were processed

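RNA from sorted recruited renin cells was amplified with SMARTer chemistry and made into Nextera XT libraries. The authors checked reads with FastQC, trimmed them with Trimmomatic 0.36, quantified GRCm38 transcripts with Salmon 0.7.2 and obtained gene values through Tximport 1.2.0 (lengthScaledTPM), from an Ensembl release not given in the sources used here. Deposited by the authors were TPM, estimated counts derived from TPM, gene length and library size, effective lengths in bases, and an average TPM that equals the mean of 3 libraries, without technical replicate 1 of sample 1 (0 rows differ by more than 1e-06 TPM).

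Python 3.11.15 was used, with scipy 1.17.1, numpy 2.4.6, pandas 2.3.3 and, for figures, matplotlib 3.10.9. Technical replicates were averaged first, and levels are given as mean ± SD over the 2 biological samples. Estimated counts totalled 19871382 to 47471036 per library, and the TPM worth of 3 counts is given as a limit for counting error only. With 1 condition no test was run: 2 technical replicates against 2 cannot give a two-sided exact permutation p below 0.33. The call between samples was tried on simulated data with changes well above the 4-fold limit. That trial does not bear on calls near the limit, such as that of Agtr1a. Coordinates and transcripts come from GENCODE M21, and promoters from RefSeq on GRCm38.

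Named were all members, the highest 3 genes of each list, genes behind counts of 5 or fewer, and 4 pathway genes (Anpep, Mme, Lnpep and Agtrap). A further gene of the pathway list enters its counts and is not reported here. The members and lists were chosen with earlier results of these data known. Alternatives changed the minimum level, the number of libraries, the scaling, the fold and the pseudocount, used estimated counts scaled to each library's total, or left out libraries or samples. Marker sums without Kap or Egfl7, Ren1 rescaled by library, and values of marker genes that went against their sum were added after seeing the data.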

Additional observations from a re-analysis of the deposited data

Results flagged for a closer look

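In 12 of 35 quantities examined, 1 library lay far from the other 3, its gap to the nearest, as a share of the whole range, being above Dixon's critical value for 4 values. Chance flags about 1 in 20 such groups for independent normal values, but 33.7% of the 10236 genes with a mean of 1 TPM or more did so here, and the libraries are technical replicates of 2 samples. Among the members these were Ace at 7.66 TPM and Agt at 1.71 TPM in technical replicate 2 of sample 2, and Mas1 at 1.74 TPM in technical replicate 1 of sample 1. In technical replicate 2 of sample 2 the others were Anpep at 7.72 TPM, M6pr at 10.1 TPM, Cpn1 at 61.0 TPM, the sum of the proximal tubule markers at 13372 TPM, of which Kap gave 11140 TPM, and that of the endothelial markers at 141 TPM, of which Egfl7 gave 126 TPM. Bdkrb1 stood apart at 56.4 TPM in technical replicate 1 of sample 1. Lnpep at 6.23 TPM, Agtrap at 15.2 TPM and Rhoa at 51.9 TPM did so in technical replicate 1 of sample 2.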

How the results depend on the processing

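The count of members found in every library, 3 in the report, was 1 at a minimum of 5 TPM, 5 at any level above 0 TPM, and 7 where 1 library sufficed, while leaving out a library gave 3 to 4. Without Ren1 or without the 20 highest genes, which include it, 2 of the remaining 8 were left. For the 23 other pathway genes the count of 5 became 12 at any level above 0 TPM, 15 where 1 library sufficed, 8 by the means of the samples and 9 with estimated counts scaled to each library's total, and 5 to 6 without a library. The 1 member called different between samples, Agtr1a, was lost (0 members) at a fold of 8 and after rescaling without mitochondrial genes. Leaving out each library in turn gave means of 22544 to 25530 TPM for Ren1, 28.5 to 57.6 for Atp6ap2, 14.3 to 43.4 for Agtr1a, 3.10 to 22.4 for Enpep, 0.00246 to 3.83 for Ace, 0.0572 to 0.914 for Agt, 0.00225 to 0.875 for Mas1 and 0.0135 to 0.0369 TPM for Agtr1b. Rescaling without the 20 highest genes multiplied all other TPM by 1.66 to 2.08. No paired analysis was possible because there is 1 group. Depth would allow 3 counts at 0.0125 to 0.102 TPM for members that were low, but technical replicates also differed at higher levels, as for Enpep at 39.1 and 0.472 TPM, so a low value in 1 library does not show absence from the cells.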
